A study of Mus musculus with 24 samples.

Results

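The KO effect of the microRNA miR-155 was compared between activated B cells and activated CD4 T cells, the lymphocytes among the 4 immune cell types of the series. The members are 12 of the 24 libraries, chosen by their titles, with 3 libraries in each of 4 groups, knockout (KO) for miR-155 and wild type (WT) of each cell type, all on the C57BL/6J strain background. The B cells were purified from spleen by negative selection on CD43 and activated with LPS at 25 ug/ml and IL-4 at 6.5 ng/ml. The CD4 T cells were CD4+CD25-CD44- cells of spleen and lymph nodes, activated with beads that carry antibodies to CD3 and CD28. The cell types therefore differed in stimulus as well as in lineage, and the effect of one cannot be told apart from that of the other. The KO allele is not described further in the labels used here. The question was which genes responded to the loss of miR-155 differently in the B cells and in the CD4 T cells, and which responded alike.

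A microRNA guides an Argonaute protein to messenger RNAs whose 3' UTR pairs with its seed, the bases near its 5' end, and the bound messengers are degraded or translated less. miR-155 is processed from the Mir155hg transcript, which antigen receptors, Toll-like receptors and inflammatory signals induce in lymphocytes and myeloid cells. In B cells it is known for its part in germinal centre responses and class switching, and in CD4 T cells for its part in helper cell differentiation and cytokine production.

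The mature miR-155-5p maps to chr16:84714143-84714165 on the plus strand of GRCm38, and its sequence is shown first below because its seed, bases 2 to 8 in capitals, defines the sites counted here. The other lines show the sites, in capitals, within the longest annotated 3' UTR of 6 genes on which the results turn, each 5' to 3' on the strand of the gene. Jarid2, Nfe2l2 and Tab2 stand for genes that rose in KO in both cell types, and Gsr for a gene that rose more in B cells. Nrip1 stands for a gene that rose in B cells and was not called in CD4 T cells. Ets1 stands for a gene with an 8mer that rose in CD4 T cells and was not called in B cells, where its fitted log2 change was -0.12. Their sites lie at chr13:44920093-44920100 and chr13:44920866-44920873 (Jarid2), chr2:75675806-75675813 (Nfe2l2), chr10:7906691-7906698 (Tab2), chr8:33697937-33697943 (Gsr), chr16:76289544-76289550 and chr16:76288589-76288595 (Nrip1) and chr9:32757208-32757215 (Ets1). The genes Nfe2l2, Tab2 and Nrip1 are on the minus strand and the others on the plus strand. Sequences and coordinates come from RefSeq (the microRNA) and the GENCODE annotation of GRCm38 (the sites), while the count files were made on mm9.
miR-155-5p: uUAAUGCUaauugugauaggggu
Jarid2, site at the lower coordinate: gattttgttttAGCATTAAactgt
Jarid2, site at the higher coordinate: tccctcacatcAGCATTAAtcttt
Nfe2l2: aaactttacaaAGCATTAAagtct
Tab2: ataaggtagaaAGCATTAAtgaaa
Gsr: atggaacaaagtGCATTAAagtta
Nrip1, first site of the UTR: cattttaaacagGCATTAAaagta
Nrip1, second site of the UTR: atcagtaaggtAGCATTAcctgtt
Ets1: ctgggttttaaAGCATTAAccttc

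Library depth ran from 9152770 to 11473588 gene counts in the B cells and from 8070030 to 10495461 in the CD4 T cells. The replicates are described as sequencing replicates without a mention of separate animals, and p-values therefore reflect only the scatter of these libraries, which could be technical. Counts of replicate pairs were 2.08 to 6.62 times as variable as counting noise (chi-square per gene), and all libraries were kept as separate samples. The 10 B cell markers summed to 4650 to 5199 CPM (counts scaled to a common library size, that of the fit) in the B cell libraries, and the 10 CD4 T cell markers to 3177 to 3398 CPM in the CD4 T cell libraries. Of the 10 B cell markers, 1 had a higher mean in KO than in WT B cells and 6 lay below WT without overlap. Of 6 plasma cell markers, 5 had a higher mean in KO B cells and 3 lay above WT without overlap. Among these, Prdm1 had a log2 change of 0.88 (edgeR adjusted p = 0.028). Libraries did not overlap for 21.5% of all tested genes in B cells. The part of cell state in the B cell changes was not tested. In the B cell libraries the T cell receptor genes Cd3g and Trat1 had 0 counts throughout, and the T cell marker sum of 30.0 to 39.6 CPM was almost all Lck, a kinase that was present at 28.5 to 38.1 CPM. Mir155 and Mir155hg were not analysed here, so the KO label was not checked on the targeted gene.

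Of 10870 genes tested in 1 edgeR fit of the 12 libraries, 373 were called at an adjusted p under 0.05 for KO against WT in B cells (3.43%), 230 up (2.12%) and 143 down (1.32%). The CD4 T cell contrast gave 329 calls (3.03%), 203 up (1.87%) and 126 down (1.16%). The difference between these effects, the change in B cells minus the change in CD4 T cells on the log2 scale, was called for 77 genes (0.708%). Of these, 25 changed more positively in B cells (0.23%) and 52 more negatively (0.478%). A further reading of the B cell and CD4 T cell contrasts, which share no library, found 57 genes called in the same direction (0.524%), 49 up (0.451%) and 8 down (0.0736%), and 5 called in opposite directions (0.046%). The 57 genes were 15.3% of those called in B cells and 17.3% of those called in CD4 T cells. Across all tested genes the changes in the cell types had a Pearson r of 0.13, which is given as a description, since most tested genes were called in neither cell type. Calls in CD4 T cells fell to 76, 131 and 64 without KO replicate 1, KO replicate 3 and WT replicate 2 of those cells and rose to 580 without WT replicate 1, and the shared count fell to 27, 37 and 25 without the first 3 of these. The B cell count fell to 188 and 215 without B cell WT replicates 1 and 2. KO and WT libraries did not overlap for 21.5% of all tested genes in B cells and 22.2% in CD4 T cells.

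**Figure D1:**
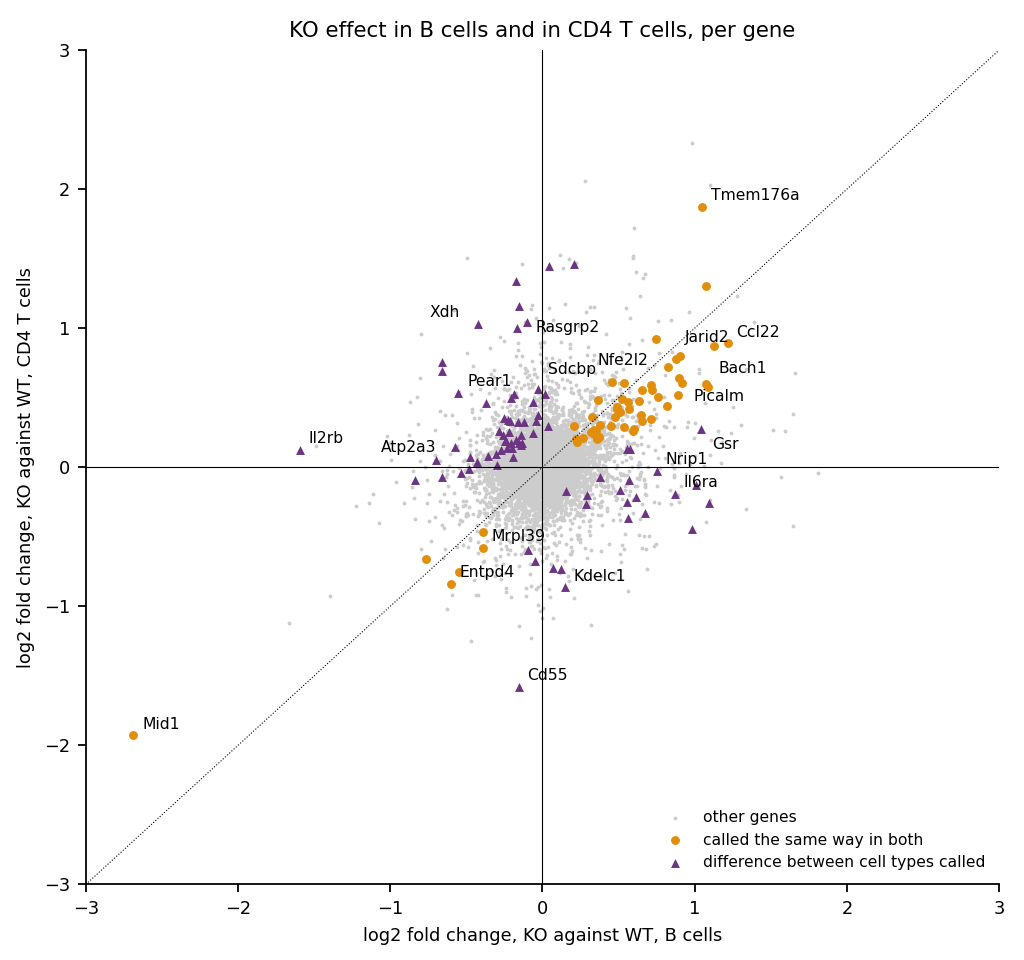
Log2 fold change of KO against WT in B cells (x axis) and CD4 T cells (y axis), 1 point per gene. Orange points are genes called the same way in both, purple triangles genes whose difference was called, grey points other genes that reach 1 CPM in a group of each cell type, and the dotted line marks equal change. The 3 called genes Ctse, Loxl2 and Pydc3 lie outside the axes. Jarid2, at 0.90 and 0.80, lies near the line and Gsr, at 1.04 and 0.28, lies below it.

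Genes that rose in both lymphocytes were mostly genes with a miR-155-5p site. Of the 49, 38 had an 8mer or 7mer match (23 an 8mer, 15 a 7mer) and 11 had no site, while of the 1502 tested genes with such a match 2.53% rose in both, against 0.13% of the 8480 without a site. Jarid2, a cofactor of the Polycomb repressive complex PRC2, stood at 124, 123 and 127 CPM in the KO and 65.9, 66.4 and 67.3 CPM in the WT B cell libraries. The CD4 T cells had Jarid2 at 229, 213 and 218 CPM in the KO and 138, 132 and 109 CPM in the WT CD4 T cell libraries. KO libraries lay above every WT library in both cell types, and the log2 change was 0.90 (SE 0.07, adjusted p = 1.2e-07) in B cells and 0.80 (SE 0.06, adjusted p = 7.3e-07) in CD4 T cells, by edgeR. The difference of 0.10 had a 95% interval of -0.10 to 0.30 and was not called (adjusted p = 0.71).

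Tab2 encodes an adaptor that links receptors to the kinase TAK1 and NF-kB. It measured 231, 213 and 206 CPM in the KO and 155, 157 and 140.0 CPM in the WT B cell libraries. In the CD4 T cells Tab2 measured 179, 177 and 178 CPM in the KO and 132, 131 and 117 CPM in the WT CD4 T cell libraries, so that again no KO library reached down to the WT range. Its changes of 0.52 in B cells and 0.49 in CD4 T cells (edgeR adjusted p = 2.3e-05 and 1.1e-04) differed by 0.03, with an interval of -0.15 to 0.21. Sdcbp, which encodes the scaffold protein syntenin, rose by 0.53 in B cells and 0.61 in CD4 T cells (adjusted p = 4.9e-06 and 1.4e-06), with an interval of the difference of -0.23 to 0.08. Tspan14, a tetraspanin gene, rose by 0.71 and 0.59, and the helicase gene Dhx40 by 0.57 and 0.42. For these 5 genes the interval of the difference lay within 1.5-fold either way.

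As a group, the 49 genes rose by a median of 0.60 in B cells and 0.43 in CD4 T cells, against medians of 0.0 in both over all tested genes. The fitted change was larger in B cells for 41 of the 49, although the difference itself was called for 1 of them, Gsr. For 33 the interval of the difference included 0, for 15 it lay above 0 and for 1 below 0, and for 39 it lay within 1.5-fold either way. Picalm, an adaptor of clathrin coats, was among those larger in B cells, where it measured 221, 226 and 208 CPM in the KO and 119.8, 121 and 113 CPM in the WT B cell libraries. In the CD4 T cells it measured 228, 245 and 219 CPM in the KO and 145, 164 and 173 CPM in the WT CD4 T cell libraries. The changes of 0.89 and 0.52 gave a difference of 0.37 (SE 0.09, adjusted p = 0.058) with an interval of 0.19 to 0.56, which missed the edgeR threshold. The call was made without B cell KO replicate 3, CD4 T cell KO replicate 2 or CD4 T cell WT replicate 1. Bach1, a heme-sensing repressor, rose by 1.07 in B cells, from 11, 10.8 and 11.6 to 25.3, 22.4 and 22.5 CPM, and by 0.60 in CD4 T cells, from 10.5, 13 and 11.8 to 17.6, 16.8 and 19.1 CPM, with a difference of 0.47 (SE 0.15, adjusted p = 0.15).

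**Figure D2:**
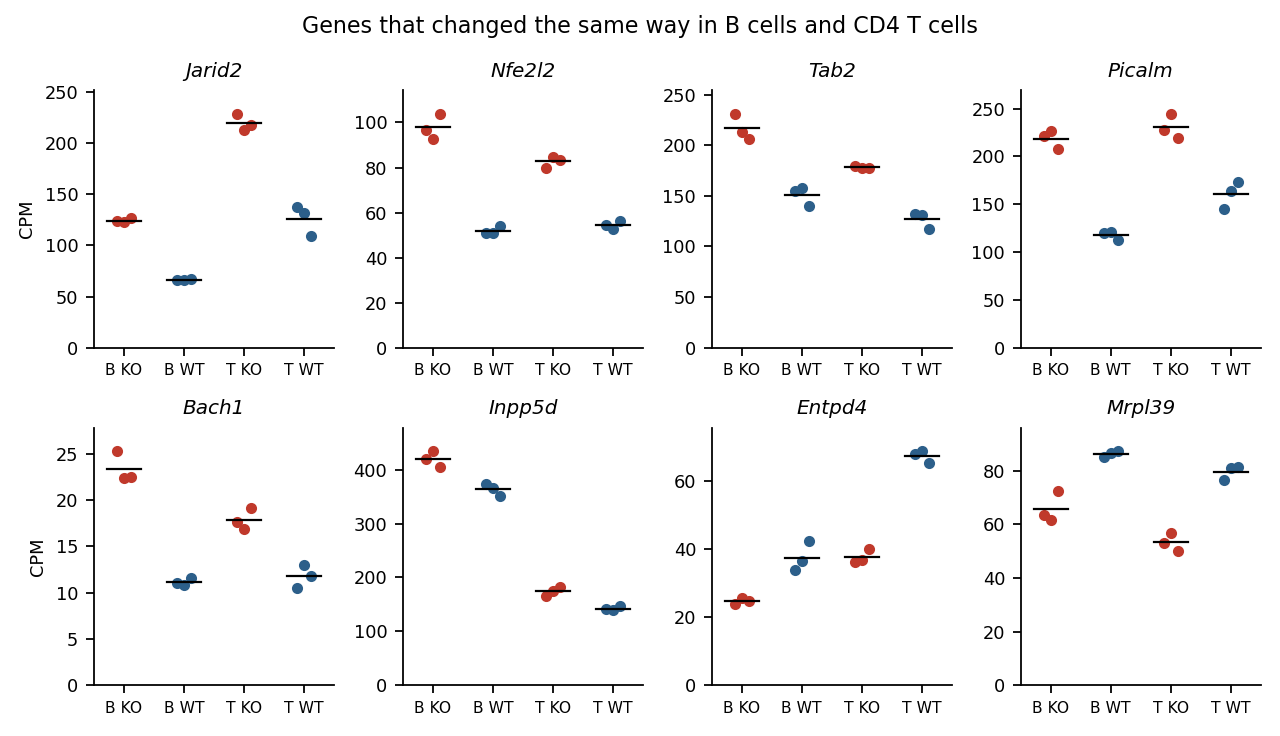
Scaled counts (CPM) in every library of 8 genes that changed the same way, with KO in red, WT in blue and the group mean as a line. In each panel and cell type the KO and WT points do not overlap. Entpd4 and Mrpl39 were lower in KO and the other 6 genes higher.

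Among the rising genes without a site were Tmem176a, a membrane protein gene, and the chemokine gene Ccl22. Tmem176a measured 51.1, 55.5 and 44.5 CPM in the KO and 25.8, 25 and 22.4 CPM in the WT B cell libraries. It was far lower in CD4 T cells, at 3.76, 2.91 and 2.2 CPM in KO and 0.929, 0.705 and 0.723 CPM in WT, and rose there by 1.88 (SE 0.30, adjusted p = 0.0018). Ccl22 rose by 1.22 in B cells and by 0.89 in CD4 T cells, from 6.19, 6.64 and 4.34 to 13.4, 10.2 and 8.79 CPM in the latter (adjusted p = 0.017), and this call was lost without CD4 T cell KO replicate 1. These CD4 T cell libraries held unequal amounts of B cell marker RNA, described below, and both genes were more abundant in B cells. The part of B cell RNA in these CD4 T cell changes was not tested, but applying the marker shares given below to the B cell levels would give a difference of 0.51 CPM for Tmem176a against 2.17 measured, and of 0.70 against 5.04 for Ccl22.

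A list of 40 genes reported as miR-155 targets, of which 36 were tested, had more members up than down in both cell types. In B cells 20 were up, 1 down and 15 not called, and in CD4 T cells 16 were up, 0 down and 20 not called. The median change was 0.42 in B cells and 0.26 in CD4 T cells, and 12 of the 36 rose in both. For the difference, 35 were not called and 1, Ets1, was called. Over all tested genes, 2.12% rose in B cells, 1.87% in CD4 T cells and 0.451% in both, and the difference was called for 0.708%. Peli1, a ubiquitin ligase gene, changed by 0.42 (SE 0.07, adjusted p = 0.0011) in B cells and by 0.06 (SE 0.07, adjusted p = 0.76) in CD4 T cells, and the difference of 0.36 (SE 0.10, adjusted p = 0.091) had an interval of 0.16 to 0.57 but missed the threshold.

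Ets1, a transcription factor of lymphocytes with an 8mer, measured 282, 274 and 298 CPM in the KO and 227, 224 and 232 CPM in the WT CD4 T cell libraries. All 3 KO libraries lay above the WT libraries there. In B cells it measured 108, 116 and 91.8 CPM in KO and 115, 116 and 112 CPM in WT, and the groups overlapped. The changes of 0.32 (SE 0.06, adjusted p = 0.008) and -0.12 (SE 0.07, adjusted p = 0.39) gave a difference of -0.44 (SE 0.09, adjusted p = 0.031), with an interval of -0.63 to -0.26. This call was lost without each of B cell WT replicates 1 and 2, CD4 T cell KO replicates 1 and 3 and CD4 T cell WT replicate 2, with adjusted p of up to 0.097, and the CD4 T cell call without CD4 T cell WT replicate 2. Socs1, a feedback inhibitor of cytokine signalling and a reported target, was not called in either cell type, at -0.07 (adjusted p = 0.85) and 0.04 (adjusted p = 0.92), with an interval of the difference of -0.47 to 0.25.

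**Figure D3:**
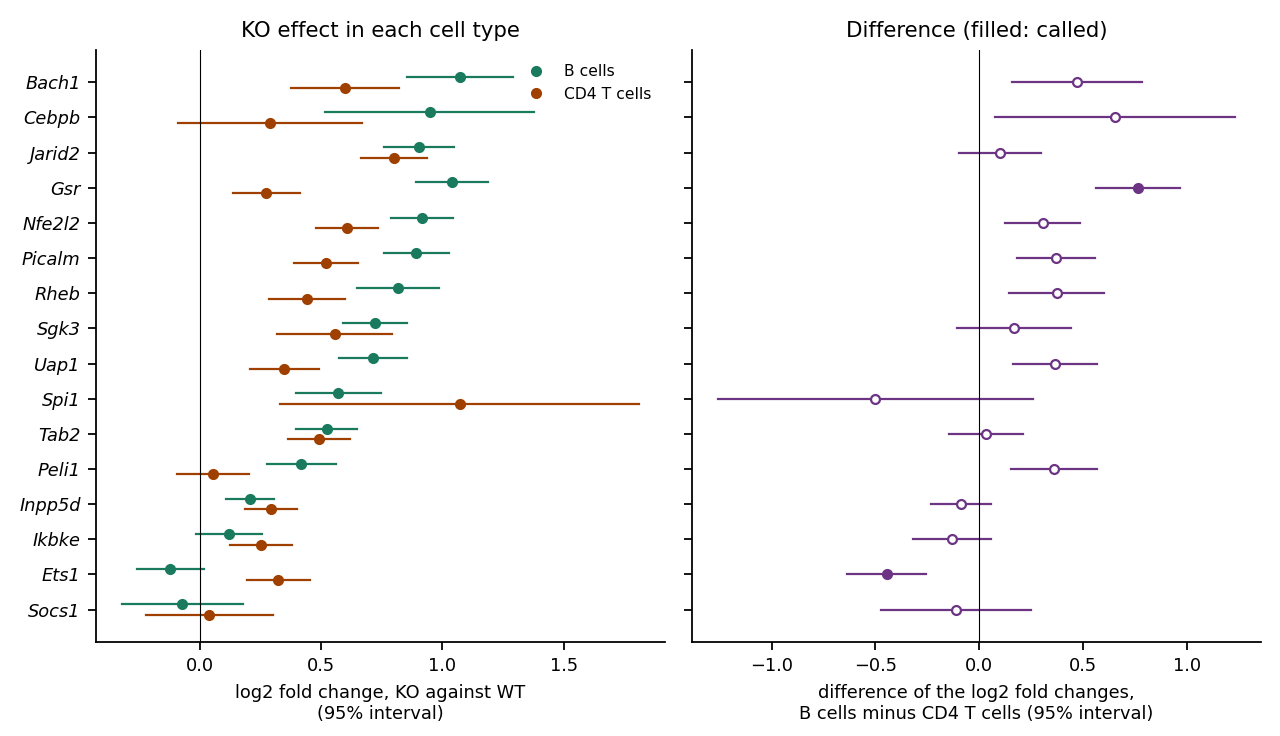
Log2 fold change of KO against WT (left) and difference of the changes, B cells minus CD4 T cells (right), with 95% intervals. The genes are reported targets of miR-155, together with Gsr and Nfe2l2 of the NRF2 list, which are not in the target list. The difference was called (filled symbol) for Gsr at 0.76 and Ets1 at -0.44, and open symbols were not called.

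Of 18 tested members of a list for NRF2, thiol reduction and iron storage, 7 rose in B cells (Nfe2l2, Nqo1, Gsr, Txnrd1, Fth1, Ftl1 and Prdx1) and 2 in CD4 T cells (Nfe2l2 and Gsr), with 0 down in either, and the difference was called for Gsr. Among all tested genes 2.12% rose in B cells and 1.87% in CD4 T cells, and the difference was called for 0.708%. The difference between the list counts was not tested, and the list median was 0.21 in B cells and 0.09 in CD4 T cells. Nfe2l2 encodes NRF2, the transcription factor that induces such enzymes, and carries an 8mer. It measured 96.8, 92.8 and 104 CPM in the KO and 50.9, 50.9 and 53.9 CPM in the WT B cell libraries. Its CD4 T cell values were 80.0, 84.8 and 83.3 CPM in KO and 54.3, 52.5 and 56.2 CPM in WT, so it rose in both, by 0.91 (SE 0.06, adjusted p = 2.4e-08) and 0.61 (SE 0.06, adjusted p = 1.2e-05), and the difference of 0.31 was not called (adjusted p = 0.1).

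Gsr encodes glutathione reductase, which regenerates reduced glutathione, and its UTR has a 7mer. It measured 61.7, 65 and 59.4 CPM in the KO and 32, 28.7 and 30.0 CPM in the WT B cell libraries, a rise of 1.04 (SE 0.07, adjusted p = 2.4e-08) without overlap. Gsr values in CD4 T cells were 73.8, 72.6 and 69.8 CPM in the KO and 57.3, 57.6 and 63.7 CPM in the WT CD4 T cell libraries, a smaller rise of 0.28 (SE 0.07, adjusted p = 0.027) in which KO and WT libraries still did not overlap. The difference of 0.76 (SE 0.10, adjusted p = 0.001) had an interval of 0.56 to 0.97, and it was called in all 12 fits that left out 1 library, by DESeq2 and limma, and in the fit of all 24 libraries. The CD4 T cell call alone was lost without any of KO replicates 1, 2 and 3 or WT replicates 1 and 2. Txnrd1 (thioredoxin reductase) and Ftl1 (ferritin light chain) rose by 0.48 and 0.51 in B cells and stood at 0.16 (adjusted p = 0.22) and 0.13 (adjusted p = 0.33) in CD4 T cells. Their differences of 0.32 (SE 0.09, adjusted p = 0.11) and 0.38 (SE 0.09, adjusted p = 0.068) were not called, and reads of ferritin genes can be shared with near-identical copies.

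The 8 genes that fell in both cell types included none with an 8mer or 7mer, and 1, Pydc3, with a 6mer. Entpd4, a nucleotide-hydrolysing enzyme of intracellular membranes, measured 23.8, 25.5 and 24.9 CPM in the KO and 33.8, 36.5 and 42.4 CPM in the WT B cell libraries. It measured 36.2, 36.9 and 40.2 CPM in the KO and 68.1, 68.9 and 65.5 CPM in the WT CD4 T cell libraries, also without overlap, and the changes were -0.60 (SE 0.08, adjusted p = 2.3e-04) and -0.84 (SE 0.08, adjusted p = 3.7e-06). Mrpl39, a subunit gene of the mitochondrial ribosome that neighbours Mir155 on chromosome 16, fell from 85.1, 86.4 and 87.2 to 63.3, 61.6 and 72.2 CPM in B cells and from 76.6, 80.9 and 81.3 to 53, 56.6 and 50.1 CPM in CD4 T cells. Its changes of -0.39 and -0.58 had an interval of the difference of -0.01 to 0.38. Lta, which encodes the cytokine lymphotoxin alpha, fell by 0.76 in B cells (adjusted p = 0.014) and fell by 0.66 in CD4 T cells (adjusted p = 4.1e-04), and the B cell call was lost without B cell KO replicates 1 or 2 or WT replicate 2.

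Some shared decreases were large. Loxl2, a lysyl oxidase gene, had 0 counts in all 6 KO libraries, against 12, 13 and 4 counts in the WT B cell libraries and 12, 13 and 6 in the WT CD4 T cell libraries. With a floor of 3 counts over a group it was at least 10.5-fold lower in B cells and at least 10.3-fold lower in CD4 T cells. Pydc3, a gene of the interferon-inducible PYHIN family whose members resemble each other, measured 1.25, 1.24 and 1.04 CPM in KO and 11.8, 14.7 and 19.2 CPM in WT B cells. Its CD4 T cell values were 0.607, 1.22 and 0.4 CPM in KO and 4.95, 3.52 and 4.03 CPM in WT. The changes were -3.67 (SE 0.25, adjusted p = 2.4e-08) and -2.43 (SE 0.34, adjusted p = 4.0e-04), and the authors' counting may split reads among family members. Mid1, a ubiquitin ligase gene, fell by 2.69 in B cells, from 50.2, 35.6 and 35.9 to 6.85, 5.07 and 6.87 CPM, and it fell by 1.93 in CD4 T cells, where the call was lost without KO replicate 1 or WT replicate 2.

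Of the 77 genes whose KO effect differed between the cell types, 8 of the 25 that changed more positively in B cells and 5 of the 52 that changed more negatively were seed-matched, as were 1502 of all 10870 tested genes. The size of the difference had a median of 0.57 and ran from 0.26 to 5.94 on the log2 scale. Of the 25, 14 were called in B cells alone, 7 in CD4 T cells alone, 1 in both in the same direction and 3 in neither. Of the 52, 19 were called in B cells alone, 22 in CD4 T cells alone, 5 in opposite directions and 6 in neither. The fitted changes had opposite signs for 19 of the 25 and 44 of the 52. Most were expressed in both cell types, with at least 5 CPM in WT of both for 21 and 45 genes, while 7 had a WT level in B cells more than 10 times that in CD4 T cells and 4 the reverse. The number of calls depended on single libraries. It fell to 50, 41, 28, 33 and 46 without B cell KO replicates 1 and 2 and WT replicates 1, 2 and 3, in that order. It fell to 21 and 45 without CD4 T cell KO replicates 1 and 3 and to 19 without WT replicate 2, and rose to 206 without WT replicate 1. Of the 77, 17 were called in all 12 fits that left out 1 library, namely Alcam, Atp2a3, Bcl9l, Cd55, Cnn2, Cnp, Ctse, Gsr, Hdac7, Klhl6, Nrip1, Pear1, Pik3c2b, Rasgrp2, Slco4a1, Uba7 and Xdh.

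**Figure D4:**
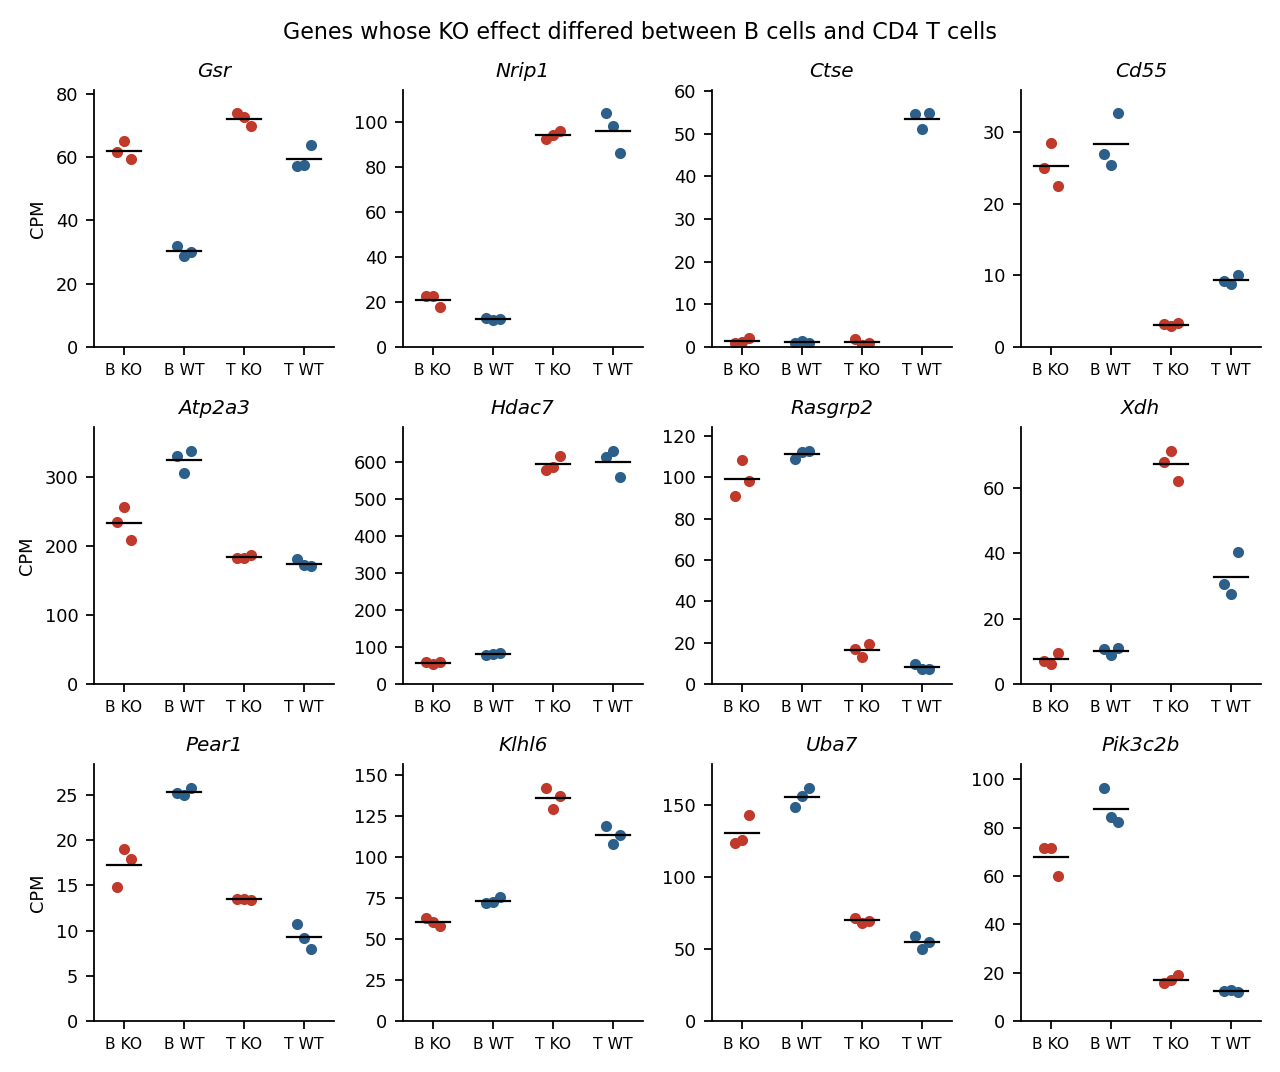
Scaled counts (CPM) in every library of 12 genes whose KO effect differed between B cells and CD4 T cells, with KO in red, WT in blue and the group mean as a line. Gsr and Nrip1 were higher in KO B cells, Ctse and Cd55 lower in KO CD4 T cells, Atp2a3 and Hdac7 lower in KO B cells, and Rasgrp2 and Xdh higher in KO CD4 T cells. The bottom panels show genes that were lower in KO B cells and higher in KO CD4 T cells.

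Several genes rose in KO B cells and did not pass the threshold in CD4 T cells. Nrip1, a corepressor of nuclear receptors with 7mers, measured 22.5, 22.5 and 18 CPM in the KO and 13, 12 and 12.6 CPM in the WT B cell libraries. In CD4 T cells, where its level was higher, it measured 92.6, 94.1 and 96.1 CPM in KO and 104, 98 and 86.1 CPM in WT, and these groups overlapped. The changes of 0.75 (SE 0.11, adjusted p = 2.6e-04) and -0.02 (SE 0.07, adjusted p = 0.92) differed by 0.78 (SE 0.13, adjusted p = 0.0088), with an interval of 0.50 to 1.05. Slco4a1, an organic anion transporter gene without a site, rose from 17.9, 15.7 and 15.2 to 21.5, 22 and 28.4 CPM in B cells and stood at 44.9, 43.6 and 48.2 CPM in KO and 52.9, 55.8 and 53.7 CPM in WT CD4 T cells. Its CD4 T cell groups did not overlap either, KO being the lower, but the change of -0.25 (SE 0.09, adjusted p = 0.13) was not called. Alcam, an adhesion molecule of activated leukocytes, changed by 0.51 (SE 0.09, adjusted p = 0.0025) in B cells and by -0.16 in CD4 T cells, with a difference of 0.68 (SE 0.12, adjusted p = 0.0098).

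Il6ra, the alpha chain of the interleukin 6 receptor, has 7mers in its long UTR. It measured 17.5, 15.9 and 14 CPM in the KO and 10.3, 6.21 and 9.91 CPM in the WT B cell libraries, and its CD4 T cell values overlapped, at 37.4, 43.5 and 36.2 CPM in KO and 47.7, 45.9 and 40.2 CPM in WT. The B cell change was 0.87 (SE 0.16, adjusted p = 0.0044) and the difference 1.06 (SE 0.20, adjusted p = 0.021), a call lost without B cell KO replicates 1 or 2, CD4 T cell KO replicate 1 or WT replicate 2. Egr1, an immediate early transcription factor, rose from 18.5, 18.8 and 15.6 to 23.8, 29.1 and 25.7 CPM in B cells, and its difference of 0.66 (SE 0.12, adjusted p = 0.017) was lost without B cell KO replicate 2 or WT replicate 3 or CD4 T cell KO replicate 1 or WT replicate 2. H1f0, a linker histone gene, rose by 1.01 in B cells and Dse, an epimerase of dermatan sulfate, by 0.67. Their differences of 1.14 (SE 0.23, adjusted p = 0.031) and 1.0 (SE 0.20, adjusted p = 0.031) were lost without 5 and 6 of the 12 libraries, each left out alone, CD4 T cell WT replicate 2 among them in both cases.

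Other positive differences came from decreases in the CD4 T cells. Ctse encodes cathepsin E, an aspartic protease of endosomes. It measured 1.82, 0.564 and 0.999 CPM in the KO and 54.6, 51 and 54.7 CPM in the WT CD4 T cell libraries. The KO CD4 T cells were thus at the level of the B cells, which had 1.07, 1.24 and 2.08 CPM in KO and 1.0, 1.41 and 0.991 CPM in WT. The CD4 T cell change of -5.62 (SE 0.19, adjusted p = 1.6e-13) gave a difference of 5.94 (SE 0.45, adjusted p = 4.6e-07), with an interval of 5.0 to 6.88. Cd55, which encodes the complement regulator decay-accelerating factor, measured 3.16, 2.91 and 3.3 CPM in the KO and 9.19, 8.76 and 10.1 CPM in the WT CD4 T cell libraries, a fall of 1.58 (SE 0.17, adjusted p = 3.2e-05). In the B cells Cd55 measured 25, 28.5 and 22.5 CPM in KO and 27, 25.4 and 32.6 CPM in WT with overlap, and the difference was 1.42 (SE 0.20, adjusted p = 0.0042). Wdr11 and Kdelc1 fell by 0.67 and 0.86 in CD4 T cells, with differences of 0.62 (SE 0.11, adjusted p = 0.0098) and 1.01 (SE 0.18, adjusted p = 0.013), and both of these were lost without CD4 T cell WT replicate 2.

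Decreases that passed the threshold in KO B cells and not in CD4 T cells gave part of the negative differences. Atp2a3, a calcium pump of the endoplasmic reticulum, measured 235, 256 and 208 CPM in the KO and 329, 306 and 338 CPM in the WT B cell libraries. Atp2a3 stood in CD4 T cells at 182, 182 and 187 CPM in KO and 181, 172 and 170.2 CPM in WT, and the difference of -0.55 (SE 0.09, adjusted p = 0.0063) came from changes of -0.47 and 0.08. Hdac7, a class IIa histone deacetylase, fell from 79.6, 80.5 and 83.4 to 60.0, 55.6 and 58.8 CPM in B cells and overlapped in CD4 T cells, where it was more abundant. Its changes were -0.48 (SE 0.06, adjusted p = 5.2e-05) and -0.02 (SE 0.05, adjusted p = 0.92) and their difference -0.46 (SE 0.08, adjusted p = 0.0074). Cnn2, the actin-binding calponin 2, changed by -0.43 in B cells and 0.04 in CD4 T cells, a difference of -0.47 (SE 0.08, adjusted p = 0.0089).

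Spn and Il2rb, both far more abundant in CD4 T cells, fell in KO B cells. Spn encodes CD43, the surface protein against which the B cells were selected, and measured 7.83, 6.99 and 8.33 CPM in the KO and 10.8, 12.2 and 11.2 CPM in the WT B cell libraries. Spn was in CD4 T cells at 372 to 448 CPM, and the difference of -0.72 (SE 0.13, adjusted p = 0.014) was lost without B cell KO replicate 2 or WT replicate 2. Il2rb, the beta chain of the interleukin 2 receptor, measured 1.07, 1.34 and 3.02 CPM in the KO and 6.02, 4.89 and 5.18 CPM in the WT B cell libraries, against 343 to 440 CPM in the CD4 T cells. Its difference of -1.72 (SE 0.31, adjusted p = 0.027) was lost without B cell KO replicates 1 or 2, any WT B cell replicate, or CD4 T cell WT replicate 2. In the same B cell libraries the kinase gene Lck fell by 0.38 (SE 0.07, adjusted p = 0.002), from 38.1, 38 and 37.6 to 28.5, 28.7 and 30.3 CPM, while Cd3g and Trat1 had 0 counts in all 6 and Cd3e and Cd4 had at most 1 library above 0. Of the 10 CD4 T cell markers, 5 had a higher mean in KO B cells, and 1, Lck, lay below WT without overlap.

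Genes that rose in KO CD4 T cells gave another part of the negative differences. Rasgrp2, an exchange factor that activates the GTPase Rap1, measured 17, 13 and 19.6 CPM in the KO and 9.6, 7.55 and 7.44 CPM in the WT CD4 T cell libraries. In B cells, where it was more abundant, Rasgrp2 stood at 91, 108 and 98.3 CPM in KO and 109, 112 and 113 CPM in WT, KO being lower without overlap but not called. The changes of 1.0 (SE 0.15, adjusted p = 0.0013) and -0.17 (SE 0.09, adjusted p = 0.39) differed by -1.17 (SE 0.17, adjusted p = 0.0058), with an interval of -1.54 to -0.80. Xdh, xanthine dehydrogenase of purine breakdown, measured 68, 71.3 and 62.1 CPM in the KO and 30.5, 27.5 and 40.5 CPM in the WT CD4 T cell libraries, a rise of 1.03 (SE 0.13, adjusted p = 4.0e-04). Its B cell levels of 7.21, 6.12 and 9.57 CPM in KO and 10.6, 8.94 and 11.1 CPM in WT overlapped, and the difference was -1.45 (SE 0.23, adjusted p = 0.0098). Cnp, a cyclic nucleotide phosphodiesterase gene, rose by 0.34 in CD4 T cells and had a B cell change of -0.23 (SE 0.06, adjusted p = 0.053), with a difference of -0.57 (SE 0.09, adjusted p = 0.0073).

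All 5 genes called in opposite directions were lower in KO B cells and higher in KO CD4 T cells, and none had a site for miR-155-5p. Pear1, a transmembrane receptor known from platelets and endothelium, measured 14.9, 19 and 17.9 CPM in the KO and 25.2, 24.9 and 25.8 CPM in the WT B cell libraries. Its CD4 T cell values were 13.5, 13.5 and 13.4 CPM in KO and 10.7, 9.16 and 7.95 CPM in WT, so that KO and WT were apart on both sides. The changes of -0.55 (SE 0.10, adjusted p = 0.0044) and 0.54 (SE 0.13, adjusted p = 0.024) gave a difference of -1.09 (SE 0.16, adjusted p = 0.0052), with an interval of -1.43 to -0.75. Klhl6, a Kelch protein of B cell receptor signalling, measured 62.9, 60.3 and 57.9 CPM in the KO and 72, 72.8 and 75.7 CPM in the WT B cell libraries. Klhl6 values in CD4 T cells were 143, 129.7 and 137 CPM in KO and 119, 108 and 114 CPM in WT, and its changes were -0.28 and 0.26, with a difference of -0.54 (SE 0.08, adjusted p = 0.0052).

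Uba7, the activating enzyme for the ubiquitin-like protein ISG15, stood at 124, 126 and 143 CPM in KO and 148, 157 and 162 CPM in WT B cells, and at 72, 68.5 and 69.4 and 59, 50.3 and 54.6 CPM in KO and WT CD4 T cells, a difference of -0.61 (SE 0.10, adjusted p = 0.0058). Pik3c2b, the catalytic subunit of a class II PI3 kinase, fell by 0.37 in B cells and rose by 0.46 in CD4 T cells, from 12.7, 12.8 and 12.1 to 15.7, 16.9 and 19.1 CPM. Its difference was -0.84 (SE 0.14, adjusted p = 0.0088). Bcl9l, a cofactor of beta-catenin, changed by -0.22 and 0.33, a difference of -0.55 (SE 0.09, adjusted p = 0.0092). The 5 differences were called in all 12 fits that left out 1 library, but the single contrasts were less firm. The CD4 T cell call was lost for all 5 without KO replicate 1 or WT replicate 2, so that 0 genes were then called in opposite directions. There were 3 such genes without B cell KO replicate 1, B cell WT replicate 1 or CD4 T cell WT replicate 3, 2 without CD4 T cell KO replicate 2 and 1 without KO replicate 3. The B cell call of Pear1 and Klhl6 held without each library. Without CD4 T cell WT replicate 1, 12 genes were called in opposite directions.

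Genes of antigen presentation by MHC class II were called as higher in the KO CD4 T cells and were not called in the KO B cells. Of 24 tested members of the antigen presentation list, 0 were called in B cells and 5 rose in CD4 T cells (H2-Aa, H2-Ab1, H2-Eb1, H2-Oa and Ciita), and the difference was called for H2-Ab1, H2-Oa and Ciita. The list median was -0.03 in B cells and 0.25 in CD4 T cells. For comparison, 3.43% of all tested genes were called in B cells and 1.87% rose in CD4 T cells. The difference was called for 0.708% of all tested genes, and was negative for 0.478%. H2-Ab1, the beta chain of the class II molecule I-A, measured 39.2, 38.2 and 42.2 CPM in the KO and 27, 22.9 and 31.2 CPM in the WT CD4 T cell libraries. Ciita, the transactivator of class II genes, measured 6.43, 5.92 and 4.5 CPM in the KO and 1.86, 2.11 and 3.51 CPM in the WT CD4 T cell libraries, and its B cell level was 329 to 443 CPM. H2-Oa, a chain of the class II modulator DO, measured 3.52, 3.76 and 4.1 CPM in the KO and 1.86, 1.91 and 1.76 CPM in the WT CD4 T cell libraries. For each of the 3 genes the KO libraries lay above the WT libraries, with CD4 T cell changes of 0.56, 1.16 and 1.04 and differences of -0.59 (SE 0.12, adjusted p = 0.045), -1.31 (SE 0.26, adjusted p = 0.042) and -1.14 (SE 0.22, adjusted p = 0.021). Tlr9, the endosomal DNA sensor, which is also far more abundant in B cells, measured 2.43, 2.54 and 1.6 CPM in the KO and 1.03, 0.503 and 1.03 CPM in the WT CD4 T cell libraries and had a difference of -1.51 (SE 0.33, adjusted p = 0.043).

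The B cell markers also had a higher mean sum in the KO CD4 T cell libraries. The 10 markers summed to 85.1, 79.8 and 49.0 CPM in the KO CD4 T cell libraries and to 36.4, 41.3 and 56.3 CPM in the WT libraries, or 1.72, 1.62, 0.99, 0.74, 0.84 and 1.14% of the mean B cell sum. The group means were 1.44% in KO and 0.91% in WT. The sums overlapped, 9 of the 10 markers had a higher mean in KO, none was called in CD4 T cells, and none was at 0 in all 6 libraries. If these shares were applied to the B cell levels, the KO libraries would exceed the WT libraries by 9.57 CPM for H2-Ab1, where 12.8 was measured, and by 9.46 CPM for H2-Eb1, where 9.94 was measured. The same figures were 1.62 against 3.12 for Ciita, 0.38 against 1.95 for H2-Oa, 0.33 against 1.33 for Tlr9 and 0.43 against 8.32 for Rasgrp2. KO replicate 3, whose marker sum was below that of WT replicate 3, had the highest H2-Ab1, H2-Oa and Rasgrp2 values. Ciita, Tlr9 and H2-Eb1 were instead lowest among the KO libraries in KO replicate 3, in the same direction as the marker sum. The part of B cell RNA in these changes was not tested. In bulk libraries, more B cells and more RNA per cell cannot be told apart.

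**Figure D5:**
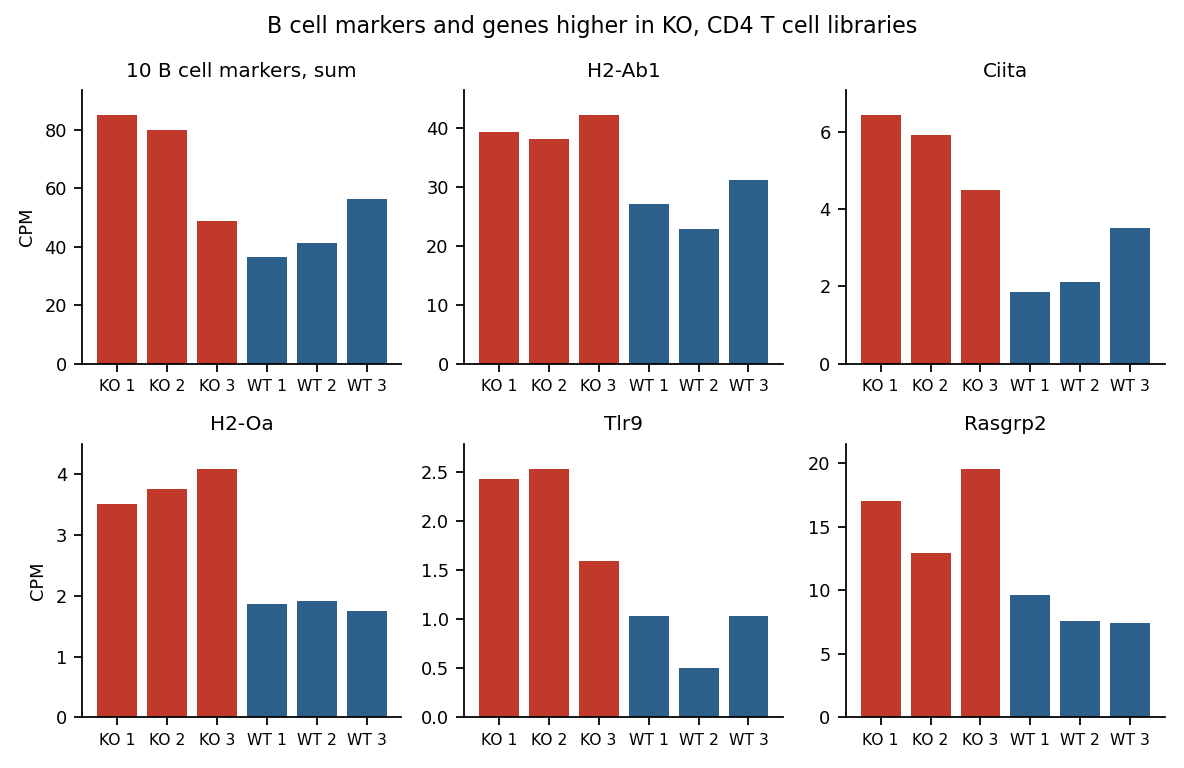
Scaled counts (CPM) of the summed B cell markers and of 5 genes whose difference between cell types was called, in the 6 CD4 T cell libraries, with KO in red and WT in blue. The marker sum was highest in KO replicates 1 and 2, at 85.1 and 79.8, while H2-Ab1, H2-Oa and Rasgrp2 were highest in KO replicate 3 and Ciita and Tlr9, like the marker sum, lowest there among the KO libraries.

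With CD4 T cell KO replicates 1 and 2 left out, a choice made after the marker sums were seen, 1 KO library remained in that group and was taken to vary like the other groups. The difference was then called for 3 genes, CD4 T cell changes for 57, shared changes for 14 and opposite changes for 0. These 3 genes were Ctse, Gsr and Rasgrp2, with differences of 6.04 (adjusted p = 2.1e-06), 0.80 (adjusted p = 0.03) and -1.43 (adjusted p = 0.0013). The differences of H2-Ab1, H2-Oa, Ciita and Tlr9 kept their sign at -0.68, -1.25, -1.01 and -1.07, with adjusted p of 0.15, 0.12, 0.37 and 0.46. With single libraries left out, each of these 4 calls was lost without CD4 T cell KO replicate 1 and without WT replicate 2, and those of H2-Ab1, Ciita and Tlr9 also without KO replicate 2 and some of the B cell libraries.

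Genes with a miR-155-5p site had a higher median change than genes without one in both cell types. Relative to the 8480 genes without a site, the median change of the 1502 genes with an 8mer or 7mer was higher by 0.056 in B cells and by 0.041 in CD4 T cells, and that of the 363 genes with an 8mer by 0.099 and 0.070. In B cells 110 of the 1502 rose (7.32%) and 11 fell, against 104 (1.23%) and 117 of the genes without a site. In CD4 T cells 70 rose (4.66%) and 12 fell, against 122 (1.44%) and 106. The B cell excess of 0.056 was close to its spread of 0.053 over libraries, and it was 0.021 without B cell KO replicate 1. The CD4 T cell excess of 0.041 had a spread of 0.0086. For the difference between the cell types the median was higher by 0.022, which was less than its spread of 0.054 over libraries, and was -0.00702 without B cell KO replicate 1. Of the 49 genes that rose in both, 11 lacked a site, and of the 5 with opposite changes all did.

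In PI3 kinase and mTOR signalling 4 of 24 members rose in B cells and 4 in CD4 T cells, with 0 down and 3 shared, Inpp5d, Rheb and Sgk3. The share of all tested genes that rose was 2.12% in B cells, 1.87% in CD4 T cells and 0.451% in both. Inpp5d, which encodes the lipid phosphatase SHIP1, measured 420.4, 435 and 405 CPM in the KO and 373, 367 and 351 CPM in the WT B cell libraries. The values of Inpp5d were also higher in KO CD4 T cells, as it measured 165, 175 and 182 CPM in the KO and 141, 139 and 146 CPM in the WT CD4 T cell libraries, and the changes were 0.21 (SE 0.05, adjusted p = 0.017) and 0.29 (SE 0.05, adjusted p = 0.0036), with an interval of the difference of -0.23 to 0.06. The B cell call was lost without B cell KO replicate 2 or WT replicates 2 or 3. Rheb, the GTPase that activates mTORC1, rose by 0.82 and 0.44, with a difference of 0.37 (SE 0.11, adjusted p = 0.12) that was not called. Pik3cd, the leukocyte PI3 kinase subunit, rose in CD4 T cells by 0.28 (SE 0.06, adjusted p = 0.01) and stood at -0.02 in B cells, and this call was lost without CD4 T cell KO replicate 1 or WT replicate 2.

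Of 35 cell cycle and replication genes 5 rose in B cells (Cdt1, Mcm2, E2f2, Wee1 and Myc) and 2 in CD4 T cells (Mcm2 and E2f2), with 0 down and no difference called. Rises were called for 2.12% of all tested genes in B cells and 1.87% in CD4 T cells, and the difference for 0.708%. Mcm2, a subunit of the replicative helicase with an 8mer, measured 549, 549.9 and 557 CPM in KO and 451, 429 and 401 CPM in WT B cells, and 562, 565 and 543 and 484, 483 and 468 CPM in KO and WT CD4 T cells. Its changes of 0.37 and 0.22 were both called, the second not without CD4 T cell KO replicate 1 or WT replicate 2. Among 24 genes of T cell activation and help, Il2 and Tnf fell and Ctla4 rose in the CD4 T cells, where 1.16% of all tested genes fell and 1.87% rose. Il2, the growth factor of activated T cells, measured 9.23, 11 and 7.69 CPM in KO and 14.8, 19.9 and 17.6 CPM in WT CD4 T cells and 0 in every B cell library. Its change of -0.90 (SE 0.16, adjusted p = 0.0081) was lost without CD4 T cell KO replicate 1 or WT replicate 2. Tnf, an inflammatory cytokine gene, changed by -0.69 (SE 0.11, adjusted p = 0.0023) in CD4 T cells and by -0.26 (SE 0.14, adjusted p = 0.37) in B cells, and the difference of 0.43 (SE 0.18, adjusted p = 0.29) was not called. Ctla4, an inhibitory receptor gene with a 7mer, rose by 0.46 (SE 0.10, adjusted p = 0.02) in CD4 T cells, a call lost without KO replicates 1 or 3 or WT replicates 2 or 3. Regulatory T cell markers summed to 512 to 633 CPM in the KO and 462 to 525 CPM in the WT CD4 T cell libraries, with overlap, and Ctla4 is one of the 4.

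The type I interferon list was not called in B cells for any of 30 members, with a median of -0.03, and in CD4 T cells 1 of 30 was up (Ifit2, 0.35, adjusted p = 0.04), with a median of 0.35. The difference was not called for any member, with a median of -0.37 against 0.0 over all tested genes, and the call of Ifit2 was lost without B cell WT replicate 2, any KO CD4 T cell replicate or WT replicate 2. B cell receptor signalling genes had 1 of 18 called in B cells, Blk, which was down, and 0 in CD4 T cells, with medians of -0.02 and 0.25. The B cell marker sum had a higher mean in the same KO CD4 T cell libraries (1.44 against 0.91% of the B cell sum, with overlap), and its part in this median was not tested. In cholesterol synthesis 0 of 22 members were called in either cell type. Beside these list counts, 3.43% of all tested genes were called in B cells and 3.03% in CD4 T cells, with 1.87% up in the latter. The difference was called for 0.708% of them.

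Being called in 1 cell type did not in itself show a difference. Of the 311 genes called in B cells alone, 33 had a called difference, 118 had an interval of the difference that included 0, and 178 had an interval within 1.5-fold either way. Of the 267 called in CD4 T cells alone, the same counts were 29, 97 and 114. The change had the same sign in the other cell type for 210 of the 311 and 171 of the 267. Of the B cell genes 72 of 181 rising and 11 of 130 falling were seed-matched, and of the CD4 T cell genes 32 of 149 and 12 of 118.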

How the data were processed

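Messenger RNA was measured by TruSeq paired-end sequencing in 12 libraries, 3 per group, and groups and replicate numbers follow the sample titles. The deposited files hold whole-number counts per gene symbol over coding sequence, made by the authors with cutadapt, STAR and the mm9 build per the submitters' processing notes, without versions. The counting tool and its handling of strand are not stated in the sources used here, so overlapping and antisense genes cannot be told apart. The line for reads in no counted feature (51.8 to 53.5% of all counts) was left out, and 8070030 to 11473588 gene counts remained per library.

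The 12 libraries were fitted once with 4 group means in edgeR 4.0.16 (R 4.3.3), with TMM factors, genes kept by filterByExpr, and a two-sided quasi-likelihood test with robust estimation, with Benjamini-Hochberg adjustment over 10870 genes and calls under 0.05. Contrasts were KO minus WT in each cell type and their difference. The standard error (SE) is the log2 change over the root of F, and 95% intervals use the moderated degrees of freedom. CPM uses the effective library sizes of the fit. On simulated counts for 10802 genes, 200 were changed in the KO B cells alone. Of these, 42% of genes with a log2 difference of 0.5 and 96% with 1.0 were recovered, and 4.17% of calls were false. The changed genes were drawn only from genes with higher counts, so recovery among genes with low counts was not measured. Each gene was drawn on its own, and the CD4 T cells were given no KO effect. Deviations that genes of a library share were not simulated, so the false share among the real calls was not measured.

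Sites (8mer AGCATTAA, 7mer-m8 AGCATTA, 7mer-A1 GCATTAA, 6mer GCATTA, sense strand, each site counted under its longest type) were counted in each gene's longest 3' UTR annotated on GRCm38. Of 20673 symbols 19829 matched directly, 560 through an older name and 284 not. An 8mer or 7mer makes a gene seed-matched.

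The members, gene lists and markers were chosen with earlier results of these data known, and lists are described by counts and medians without a test. Named genes were the 12 with the smallest p in each direction of the called difference (at least 5 CPM in a group), the 10 shared ones in each direction and up to 10 opposite ones. Up to 10 seed-matched shared and 8 seed-matched different ones, a fixed set of genes and up to 4 members of each list were added. The fixed set held reported targets and other genes, among them Nfe2l2, Gsr and Mrpl39. Predicted genes, Rik clones, ribosomal protein genes and antigen receptor segments were passed over. Other list members are named where a count of called members is given, after their values were seen. One member of the target list is not reported here. Alternatives were RLE factors, DESeq2 1.42.0, limma 3.58.1 with voom and quality weights, other filters, other sets of libraries, the replicate number as a block, and 8mers alone.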

Additional observations from a re-analysis of the deposited data

Results flagged for a closer look

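The KO effect differed between B cells and CD4 T cells, by the edgeR test of the difference itself over 12 libraries, for 33 of the named genes. Values are the log2 change in B cells minus that in CD4 T cells. Of the 33, 17 were called in every fit that left out 1 library. Among these the value was 5.94 for Ctse, 1.42 for Cd55, 0.80 for Slco4a1, 0.78 for Nrip1, 0.76 for Gsr and 0.68 for Alcam. On the negative side it was -1.45 for Xdh, -1.17 for Rasgrp2, -1.09 for Pear1, -0.84 for Pik3c2b, -0.61 for Uba7, -0.57 for Cnp, -0.55 for Atp2a3, -0.55 for Bcl9l, -0.54 for Klhl6, -0.47 for Cnn2 and -0.46 for Hdac7.

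For the other 16 genes the call was lost in at least 1 such fit. Their positive values were 1.14 for H1f0, 1.06 for Il6ra, 1.01 for Kdelc1, 1.0 for Dse, 0.93 for the kainate receptor auxiliary protein gene Neto2, 0.86 for the sialyltransferase gene St8sia6, 0.83 for the formin gene Daam1, 0.66 for Egr1 and 0.62 for Wdr11. Their negative values were -1.72 for Il2rb, -1.51 for Tlr9, -1.31 for Ciita, -1.14 for H2-Oa, -0.72 for Spn, -0.59 for H2-Ab1 and -0.44 for Ets1.

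Neto2, St8sia6 and Daam1 are seed-matched. Neto2 was called in neither cell type, at 0.56 in B cells (adjusted p = 0.055) and -0.37 in CD4 T cells (adjusted p = 0.10). Daam1 rose in B cells by 0.62, and St8sia6 fell in CD4 T cells by 0.73 although it has a 7mer. All 3 were lost without CD4 T cell KO replicates 1 or 2 or WT replicate 2, any B cell WT replicate or B cell KO replicates 1 or 2, with adjusted p of up to 0.14.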

How the results depend on the processing

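For the named genes no fold change past the threshold changed sign under any alternative, and 17 of 33 differences kept their call without each library but 3 of 33 under all other settings. Of the 77 genes with a called difference 72 were also called by DESeq2, 74 by limma and 7 with all 24 libraries. The count of 77 (25 higher and 52 lower in B cells) was 160 (51 and 109) with DESeq2, 170 (70 and 100) with limma, 139 (51 and 88) without a filter, 7 (6 and 1) with 24 libraries and 3 (2 and 1) without CD4 T cell KO replicates 1 and 2, the last chosen after seeing the data. With 1 library left out it ran from 19 to 206 (6 to 90 and 13 to 116). The 373 B cell calls became 81 with 24 libraries and 248 without those KO libraries, and ran from 188 to 433. The 329 CD4 T cell calls became 725 with limma, 63 with 24 libraries and 57 without those KO libraries, and ran from 64 to 580. The 57 shared genes became 109, 18 and 14 under these settings and ran from 25 to 75. The 5 opposite genes became 11 with limma, 0 with 24 libraries, 3 with each cell type alone and 0 without those KO libraries, and ran from 0 to 12. The common coefficient of variation was 6.58% in KO and 4.84% in WT B cells and 4.51% in KO and 7.48% in WT CD4 T cells, and the cause of these shifts was not tested. The excess of seed-matched genes ran from 0.021 to 0.080 in B cells, from 0.034 to 0.044 in CD4 T cells (0.070 with 8mers alone) and from -0.00702 to 0.053 for the difference, where it reversed to -0.00702 without B cell KO replicate 1.

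With the replicate block, the counts were 311 (126 and 185) for the difference, 640 in B cells, 653 in CD4 T cells, 110 shared and 18 opposite. Same-numbered KO and WT libraries had correlations of their deviations from 0.05 to 0.33 in B cells and from -0.35 to 0.06 in CD4 T cells. Differently numbered ones ran from -0.35 to 0.13 in B cells and from -0.39 to 0.35 in CD4 T cells. The B cell values did not settle whether the numbers pair libraries there, and the main fit took no pairing. The numbers are those of the titles, and the WT B cell files are numbered differently, so same-numbered B cell pairs and the block are uncertain. The median SE of the difference over all tested genes was 0.13, and replicates varied 2.08 to 6.62 times as much as counting noise.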
